A study of Mus musculus with 12 samples.

Results

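The genes described here encode the proteins of the cytosolic ribosome, and they were read in the caput epididymidis of mice at 13 months. Members were all gene names that begin with Rpl, Rps, Rplp or Rpsp followed by a digit, without the Rps6k kinases, and each gene was represented by its transcript with the highest mean RPKM (reads per kilobase of transcript, scaled to 1000000 reads of the library). The rule found 88 of 22021 genes, carried by 100 transcripts. Of these, 76 are core ribosomal protein genes, 8 are paralogues of a core gene, 3 carry pseudogene names, and 1, Rps19bp1, encodes a protein that binds a ribosomal protein. The rule misses ribosomal protein genes with other names, among them Rpsa, Fau and Gnb2l1, whose values are given beside the members.

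The study sequenced tissue of C57BL/6 mice labelled KO, which carry Gpx5-/-, and of C57BL/6 WT mice, with no treatment. The caput transcriptome at 13 months was sequenced in 1 KO and 1 WT library, each pooled from 7 mice. Small RNAs of 18 to 40 nt were sequenced in 10 libraries, 1 KO and 1 WT library each of caput, corpus, cauda and testis at 13 months and of caput at 2 months. Caput and cauda were punctured in buffer so that spermatozoa could leave before RNA was extracted. With 1 library in a group there is no replicate error and no test between genotypes, and the intervals below, at 95%, cover counting error only.

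Ribosomes are built from ribosomal RNA and a fixed set of proteins, with a small subunit that reads the mRNA and a large subunit that joins amino acids. A stalk of acidic proteins on the large subunit recruits the translation factors. Ribosomal protein mRNAs are among the most abundant of any cell, and most begin with a terminal oligopyrimidine (TOP) tract, a run of C and T letters at the 5′ end through which their translation is regulated together. In mouse testis, Rpl10l is an autosomal retrogene that stands in for X-linked Rpl10 when the X chromosome is silenced in meiosis, and Rpl39l is a testis-enriched copy of X-linked Rpl39.

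The libraries held 13929327 reads in KO and 14348655 in WT, per the header of the authors' file. The targeted gene, Gpx5, an epididymal glutathione peroxidase, stood at 918 RPKM in KO and 8474 RPKM in WT; the table does not say which part of the gene was deleted, so the remaining level was not assigned to an exon. Caput identity was seen in 12 genes of caput secretory cells, among them Lcn5, a lipocalin, with 2294 RPKM in KO and 770 RPKM in WT, and 9 of the 12 were at least 2-fold higher in KO. Testis transcripts differed in the other direction. All 10 spermatid and sperm genes were lower in KO, with a summed level of 151 RPKM in KO and 10986 RPKM in WT, all 5 spermatocyte genes summed to 5.45 RPKM in KO and 156 RPKM in WT, and all 6 Leydig cell genes summed to 11.8 RPKM in KO and 362 RPKM in WT. None of these marker genes was listed at 0 in either library. Markers of other cells had median differences of 0.80 for basal cells (4 genes), 0.69 for clear cells (3 genes), 0.16 for leukocytes (3 genes), 0.54 for muscle (2 genes) and 1.16 for erythrocytes (2 genes), in log2(RPKM + 1), KO minus WT. Among them, Atp6v1b1 of clear cells, at 1.04 RPKM in KO and 1.41 RPKM in WT (-0.24), and Ptprc of leukocytes (-0.11) were lower in KO. The 3 Sertoli cell genes differed among themselves, with Dhh at 0.182 RPKM in KO and 3.30 RPKM in WT (-1.86), Sox9 at 4.21 RPKM in KO and 3.26 RPKM in WT (0.29) and Clu, which caput cells also express, at 2961 RPKM in KO and 1507 RPKM in WT (0.97). In bulk tissue, fewer cells of a type and less RNA per cell cannot be told apart, and the part of these cells in the values below was not tested.

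The core ribosomal protein transcripts were higher in KO caput as a set, with a median difference of 0.87 in log2(RPKM + 1), KO minus WT, although centring on the caput secretory genes, whose own median was 1.07, turns that direction. The spread was narrow, with quartiles of 0.75 and 0.99. Over all 88 members, paralogues included, the median was 0.83, while the median over the 15000 genes that reached 1 RPKM in either library was 0.05. Centred on the caput secretory genes, the members' median was -0.24 and 9 of 88 lay above that centre. Every member passed that minimum of 1 RPKM, Rpl10l and Rpl39l only through the WT library. Without that centring, 85 of 88 members lay above 0, against 52.4% of all genes tested. At the 2-fold mark, a difference of at least 1, 16 members were higher in KO, which is 18.2% of them against 2.77% of all genes tested, and 2 were lower, which is 2.27% against 22.1%. The 2 lower members were both paralogues. By the GFOLD value of the authors' deposited table, a log2 fold change shrunk for low counts, 11 members were at or above 1, which is 12.5% of them against 1.69% of all genes tested, and 2 were at or below -1, which is 2.27% against 20.2%.

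**Figure D1:**
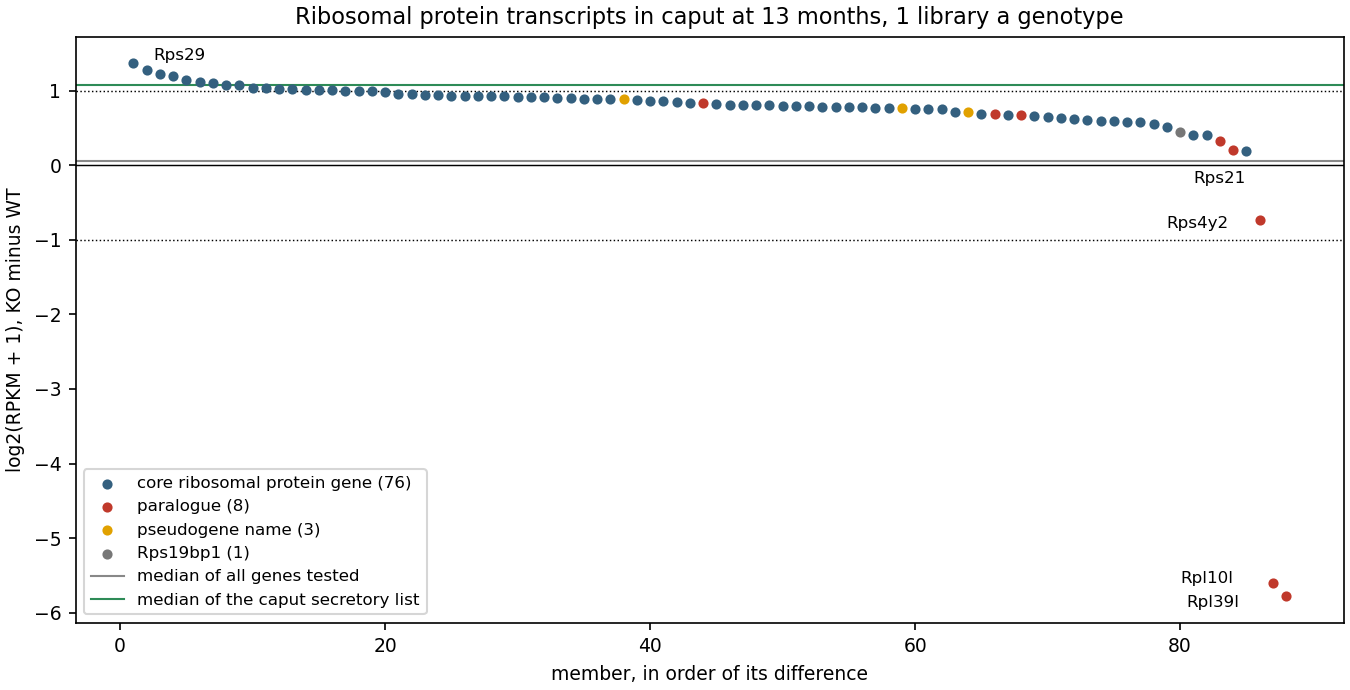
Difference of each of the 88 members between the KO and the WT caput library at 13 months, in order of size; the vertical axis is log2(RPKM + 1), KO minus WT, points are genes, dotted lines mark 2-fold, and horizontal lines mark the medians of all genes tested (0.05) and of the caput secretory list (1.07). Core genes lie between 0.19 and 1.36, while Rpl10l and Rpl39l lie below -5; 79 of the 88 members lie under the caput secretory line, so centring on it turns the direction of most.

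In summed level the core genes made up 6.01% of all RPKM in KO and 3.51% in WT, a ratio of 1.82. The order of the core genes by level was nearly the same in both libraries, with a correlation of log2 RPKM over the 76 genes of r = 0.99 and rho = 0.98, given as a description of 2 libraries that share gene lengths. The difference bore little relation to a gene's level (r = 0.15, rho = 0.11 over 76 genes). Core genes with a mean of at least 200 RPKM had a median of 0.90 (34 genes), those with a mean between 100 and 200 RPKM one of 0.79 (21 genes), and those under 100 RPKM one of 0.90 (21 genes).

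Among other genes, the median difference was larger at higher levels. Genes outside the members with a mean of at least 1 and under 20 RPKM had a median of 0.03 (11183 genes). Those between 20 and 100 RPKM had 0.14 (2680 genes), those between 100 and 200 RPKM 0.50 (274 genes) and those of at least 200 RPKM 0.90 (190 genes). At the highest levels, then, the median of the core genes and that of other genes were both 0.90, and 9 of 34 core genes and 70 of 190 other genes were at least 2-fold higher in KO. Below 100 RPKM the core genes had a median of 0.90, while other genes between 20 and 100 RPKM had one of 0.14. That core bin also holds Rps29 and Rps21, with means under 20 RPKM, and levels within the bins were not matched.

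**Figure D2:**
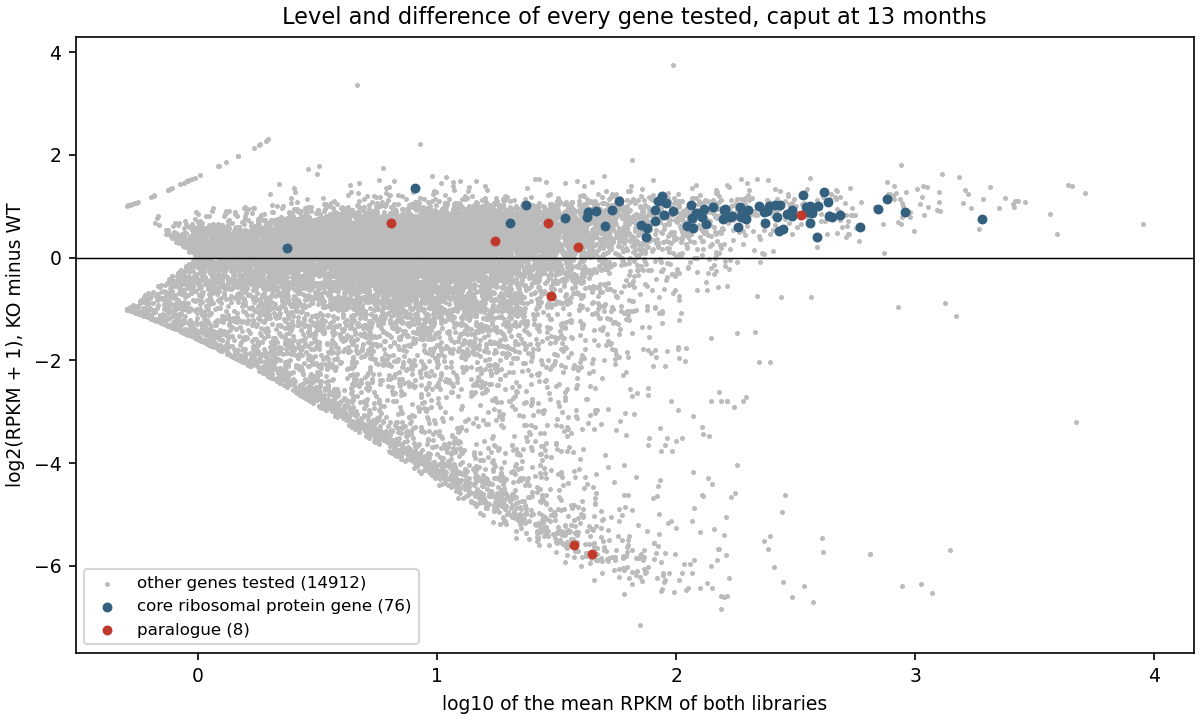
Difference between the KO and the WT caput library (vertical axis, log2(RPKM + 1), KO minus WT) against the mean level of both libraries (horizontal axis, log10 of RPKM) for all 15000 genes tested; grey points are other genes, blue points core ribosomal protein genes and red points paralogues. The core genes form a flat band above 0 across levels, at a median of 0.87 that becomes negative when centred on the caput secretory genes, and Rpl10l and Rpl39l lie on the lower edge with genes nearly absent from the KO library.

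The large subunit proteins form the shell around the peptidyl transferase center and the exit tunnel. Its 43 core genes without the stalk had a median difference of 0.87 and ranged between 0.52 and 1.22. Of them, 11 were at least 2-fold higher in KO, against 2.77% of all genes tested. Among other genes, 70 of 190 with a mean of at least 200 RPKM and 47 of 274 between 100 and 200 RPKM were. Rpl41, which encodes a very short basic peptide, was the most abundant member, with 2390 RPKM in KO and 1423 RPKM in WT, a difference of 0.75. Rpl26, whose protein lies at the tunnel exit, followed with 1179 RPKM in KO and 639 RPKM in WT, a difference of 0.88. Both abundant transcripts stayed under the 2-fold mark, as did Rpl32 with 573 RPKM in KO and 329 RPKM in WT (0.80).

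The largest differences of autosomal large subunit genes were those of Rpl37 and Rpl22. Rpl37, a zinc-binding protein, had 79.7 RPKM in KO and 36.3 RPKM in WT, from 962 and 452 reads, a ratio of 2.19 (1.96 to 2.46). Rpl22, an RNA-binding protein that mice can live without, had 123 RPKM in KO and 58.0 RPKM in WT, from 3494 and 1697 reads, a ratio of 2.12 (2.00 to 2.25). Both ratios lay above 1 by more than their counting error.

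Further members of the large subunit past the mark were close to it. Rpl17 had 155 RPKM in KO and 75.4 RPKM in WT (1.03), Rpl12, part of the stalk base, 31.8 RPKM in KO and 15.1 RPKM in WT (1.03), and Rpl10a 347 RPKM in KO and 170 RPKM in WT (1.02). Rpl13a, which in humans also joins an interferon-dependent translation silencing complex, had 522 RPKM in KO and 260 RPKM in WT (1.00). Rpl3, a core protein near the peptidyl transferase center, and Rpl19 each differed by 1.00. The upper quartile of the core genes, 0.99, lay just under the 2-fold mark, and Rpl5 (0.99) just outside it. The lowest large subunit gene was Rpl29, with 319 RPKM in KO and 222 RPKM in WT, a difference of 0.52.

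The small subunit holds the decoding center and the mRNA channel. Its 30 core genes had a median of 0.85 and ranged between 0.19 and 1.36. Of them, 5 were at least 2-fold higher in KO, against 2.77% of all genes tested and 70 of 190 other genes with a mean of at least 200 RPKM. Rps29, a short zinc-binding protein, had the highest difference above 0 of all members, with 12.1 RPKM in KO and 4.11 RPKM in WT, a difference of 1.36, but rested on 66 reads in KO and 23 in WT, a ratio of 2.96 (1.81 to 4.98). With a pseudocount of 5 its difference was 0.91, under the 2-fold mark and under the 1.26 of Rps4x. Rps27, also a zinc-binding protein, had 122 RPKM in KO and 52.6 RPKM in WT (1.20). Rps3a and Rps3, the second of which lies at the mRNA entry site, had differences of 1.08 (585 RPKM in KO and 276 RPKM in WT) and 1.02 (364 RPKM in KO and 179 RPKM in WT).

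The abundant small subunit transcripts Rps23 and Rps15 stayed under the mark. Rps23, a decoding center protein, had 622 RPKM in KO and 347 RPKM in WT (0.84), and Rps15 had 557 RPKM in KO and 319 RPKM in WT (0.80). A further 3 small subunit genes were the lowest of the core set. Rps20 had 443 RPKM in KO and 336 RPKM in WT (0.40), Rps13 had 85.1 RPKM in KO and 64.2 RPKM in WT (0.40), and Rps21 had 2.57 RPKM in KO and 2.14 RPKM in WT (0.19). The Rps21 value came from 14 reads in KO and 12 in WT, and its ratio of 1.20 (0.516 to 2.84) was within counting error of no difference.

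Within the stalk, Rplp1 had 921 RPKM in KO and 476 RPKM in WT (0.95), Rplp2 60.6 RPKM in KO and 31.8 RPKM in WT (0.91), and Rplp0, the scaffold that holds the acidic dimers, 710 RPKM in KO and 470 RPKM in WT (0.60). Rplp0 thus stood below its partners, and none of the 3 passed 2-fold. Genes that the name rule misses follow. Gnb2l1, the Rack1 scaffold on the small subunit, had 212 RPKM in KO and 96.2 RPKM in WT (1.13), Rpsa 321 RPKM in KO and 161 RPKM in WT (0.99), and Fau, a ubiquitin-like fusion with a small subunit protein, 446 RPKM in KO and 258 RPKM in WT (0.79). Centring on the caput secretory genes turns the direction of all but Gnb2l1 among these 6 genes.

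All 4 X-linked core genes passed the 2-fold mark. Rps4x had 591 RPKM in KO and 244 RPKM in WT (1.27), Rpl39, at the wall of the exit tunnel, 475 RPKM in KO and 204 RPKM in WT (1.22), Rpl10, needed for the joining of the subunits, 1048 RPKM in KO and 473 RPKM in WT (1.15), and Rpl36a 115 RPKM in KO and 53.3 RPKM in WT (1.10). The remaining 72 core genes had a median of 0.86, and 12 of them were at least 2-fold higher. Other X-linked genes with a mean of at least 50 RPKM had a median of 1.05 (33 genes, 21 at least 2-fold higher), and other autosomal genes of that level one of 0.43 (972 genes, 139 at least 2-fold higher). The X-linked ribosomal protein genes, with a median of 1.18, thus stood beside abundant X-linked genes in general, and the part of the chromosome in their values was not tested.

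Both members lower by 2-fold were paralogues known from the testis. Rpl39l had 0.624 RPKM in KO and 88.1 RPKM in WT, a difference of -5.78, from 7 reads in KO and 1018 in WT. Scaled to library size, its reads in WT were 141 times those in KO (68.3 to 352). Rpl10l had 0.561 RPKM in KO and 74.5 RPKM in WT, a difference of -5.59, from 8 reads in KO and 1093 in WT, with scaled reads in WT at 133 times those in KO (67.1 to 308). Both were present in WT caput at levels within the range of the core genes, and under 1 RPKM in KO caput.

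Rpl39 and Rpl10, the usual copies, were higher in KO, by 1.22 and 1.15. Centred on the caput secretory genes, they lay at only 0.145 and 0.0758. Both uncentred values lay within the quartiles of that list, 1.01 and 1.30, so their direction after centring is not clear. The makeup of each pair differed. Rpl39l was 0.131% of the summed RPKM of Rpl39l and Rpl39 in KO and 30.2% in WT, and Rpl10l was 0.0535% of Rpl10l and Rpl10 in KO and 13.6% in WT. The sum of both copies was 476 RPKM in KO against 292 RPKM in WT for the Rpl39 pair and 1049 RPKM in KO against 547 RPKM in WT for the Rpl10 pair. Beside this pattern stand the 21 spermatid, spermatocyte and Leydig cell genes given above, all lower in KO, while of the 3 Sertoli cell genes 1 was lower. Pabpc2, a poly(A)-binding protein of germ cells, had 1.03 RPKM in KO and 99.3 RPKM in WT. Eif1ax, the other tested gene of the same list of translation genes, went the other way, with 34.5 RPKM in KO and 25.3 RPKM in WT (0.43). The part of these genes in the paralogue values was not tested.

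**Figure D3:**
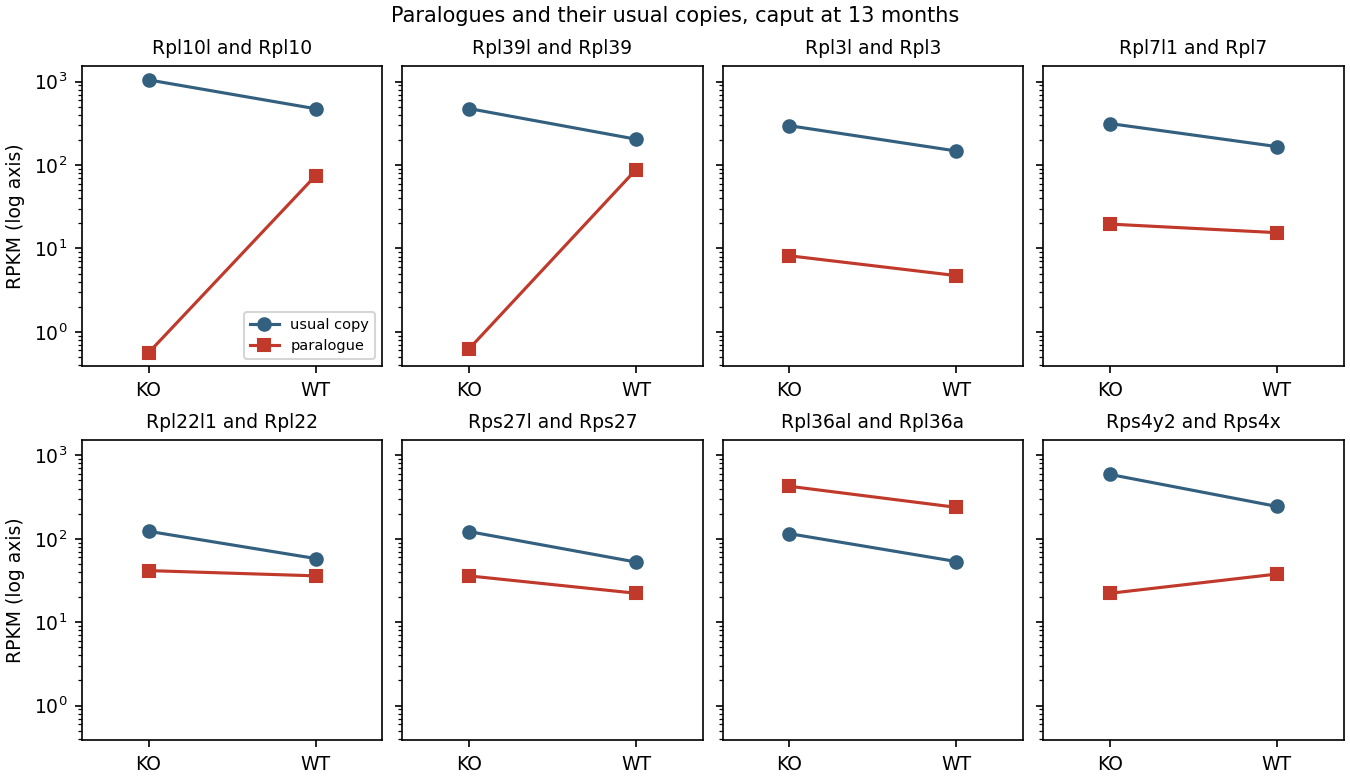
Level of each of the 8 paralogues (red squares) and of its usual copy (blue circles) in the KO library, left, and the WT library, right, on a log axis in RPKM. Rpl10l and Rpl39l are under 1 RPKM in KO and at 74.5 and 88.1 RPKM in WT, and Rps4y2 is the only other paralogue that is lower in KO.

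Of the other 6 paralogues 1, Rps4y2, was also lower in KO, by less than 2-fold, and 5 had differences above 0, all below the centre of the caput secretory genes. Rps4y2, which RefSeq names Rps4l and lists on chromosome 6 as a transcribed pseudogene, had 22.2 RPKM in KO and 37.8 RPKM in WT, from 291 and 510 reads, a difference of -0.74. Its share of the pair with Rps4x was 3.62% in KO and 13.4% in WT. Rpl36al, a retrogene that exceeded its X-linked parent, had 426 RPKM in KO and 238 RPKM in WT (0.84), which is 78.7% of the pair in KO and 81.7% in WT. Rpl3l, known from skeletal muscle and heart, had 8.16 RPKM in KO and 4.72 RPKM in WT (0.68), and Rps27l, a p53-induced copy of Rps27, had 35.9 RPKM in KO and 22.2 RPKM in WT (0.67).

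Rpl22l1, whose protein can replace Rpl22 in mouse, had 41.5 RPKM in KO and 35.9 RPKM in WT, from 276 and 246 reads, a ratio of 1.16 (0.970 to 1.38) that was within counting error of no difference. It was 25.3% of its pair in KO and 38.3% in WT, with Rpl22 itself at a difference of 1.07. Rpl7l1 had 19.6 RPKM in KO and 15.5 RPKM in WT (0.32). In each of the 8 pairs the paralogue's share was lower in KO than in WT, by a wide margin for Rpl10l and Rpl39l and by under 1 percentage point for Rpl3l. The read ratio of Rpl3l, 1.73 (1.33 to 2.26), had an interval that included the 2.01 of Rpl3, so that pair was within counting error. Reads of both copies were not recovered for every pair, among those not recovered being Rpl7l1.

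Pseudogene names could not be separated fully from their parents. Rpl34 and Rpl34-ps1 carried the same 244 reads in KO and 145 in WT, so they are not independent values. Rps19-ps3 differed by 0.88 and Rplp2-ps1 by 0.71, both within the range of the core genes. How the authors' counting treated reads that match several copies is not given in the sources used here, and ribosomal protein genes have many processed copies, so values of single members are uncertain to that extent. Rps19bp1 had 15.5 RPKM in KO and 11.2 RPKM in WT (0.44). For the 9 members with several transcripts, the transcripts of a gene differed by at most 0.18 in their log2 difference.

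The start of the gene was examined because ribosomal protein genes are known to share features there. RefSeq promoters of build GRCm38.p6, which run 250 bases before to 50 bases after the annotated start, were found for 64 of the 88 members, 56 of them core genes. The longest unbroken run of C and T between 20 bases before and 50 bases after the start was at least 8 letters in 45 of 56 core genes (80.4%), against 28.5% of 27025 genes in the table. The 45 core genes with such a run had a median difference of 0.86 and the 11 without one 0.79. CCGGAAG, the core of ETS factor sites, on either strand of the whole window, was found in 41.1% of core promoters and in 9.93% of all genes, and AAGATGGC, a YY1-type motif, in 8.93% and 3.19%. These are matches of letters, not sites.

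The stretches of 30 bases around the longest run are shown for the lower paralogues with their usual copies and for Rpl41 and Rpl26, the most abundant members with a table entry. Each reads 5′ to 3′ on the strand of the gene, with the run in capitals, and runs of Rpl10, Rpl39 and Rpl41 reach the last base of the table entry.
Rpl10l: aacagaaatttggCCTCCattttgcggctg
Rpl10: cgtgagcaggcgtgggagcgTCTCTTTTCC
Rpl39l: ctagctcccaggCCTTTCCggatttccggt
Rpl39: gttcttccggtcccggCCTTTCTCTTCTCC
Rpl41: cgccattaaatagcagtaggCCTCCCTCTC
Rpl26: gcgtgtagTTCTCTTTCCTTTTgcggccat
They lie at chr12:66284395-66284424 on the minus strand for Rpl10l, chrX:74270836-74270865 on the plus strand for Rpl10, chr16:10170209-10170238 on the plus strand for Rpl39l, chrX:37085173-37085202 on the minus strand for Rpl39, chr10:128549119-128549148 on the minus strand for Rpl41 and chr11:68901579-68901608 on the plus strand for Rpl26. The longest runs of the paralogues had 5 letters in Rpl10l and 7 in Rpl39l, against 10 in Rpl10 and 14 in Rpl39. The runs of Rpl10 and Rpl39 begin 40 and 36 bases after the annotated start and may go on past the table entry, while those of Rpl10l and Rpl39l begin before the start, so no run is shown to be the 5′ end of an mRNA.

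Related gene groups were compared to see how far the difference extended. The 76 mitochondrial ribosomal protein genes, which serve the separate ribosome of that organelle, had a median of 0.20, and none was at least 2-fold higher, against 2.77% of all genes tested, and 2 were lower, against 22.1%. These were Mrpl47, with 6.67 RPKM in KO and 35.1 RPKM in WT (-2.23), and Mrpl39, with 21.9 RPKM in KO and 68.9 RPKM in WT (-1.61). Their highest value, 0.96 for Mrpl14, lay under the highest core values, and their median level was 15.7 RPKM in KO and 14.4 RPKM in WT, against 244 RPKM in KO and 137 RPKM in WT for the core genes.

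The 17 other TOP mRNAs and translation factors had a median of 0.35 and a wider spread. Of them, 12 lay above 0, against 52.4% of all genes tested. Eef1a1, the elongation factor that delivers aminoacyl-tRNA, had 4719 RPKM in KO and 2623 RPKM in WT (0.85), Tpt1 657 RPKM in KO and 370 RPKM in WT (0.83) and Eef1b2 69.7 RPKM in KO and 35.1 RPKM in WT (0.97), all within the core range. Pabpc1, the poly(A)-binding protein, was the one that was lower by 2-fold, with 39.1 RPKM in KO and 115 RPKM in WT (-1.54). None of the 17 was at least 2-fold higher, so 0 higher and 1 lower stand against the same shares of 2.77% and 22.1%.

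The 24 ribosome biogenesis factors, which process ribosomal RNA and assemble subunits, had a median of -0.05. Wdr12, of the PeBoW complex, had 4.43 RPKM in KO and 15.0 RPKM in WT (-1.56), and Polr1a, the largest subunit of RNA polymerase I, 2.64 RPKM in KO and 5.09 RPKM in WT (-0.74). Nop2 had 4.30 RPKM in KO and 7.55 RPKM in WT (-0.69) and Bysl 4.95 RPKM in KO and 8.50 RPKM in WT (-0.67), both factors of subunit assembly. The highest values of the list, named after they were seen, were those of Ubtf, which drives ribosomal RNA transcription, with 25.4 RPKM in KO and 17.4 RPKM in WT (0.52), and Ncl, nucleolin, with 23.3 RPKM in KO and 16.0 RPKM in WT (0.52). Of the 24 factors, 11 lay above 0, against 52.4% of all genes tested. None was at least 2-fold higher, against 2.77%, and 1, Wdr12, was lower by 2-fold, against 22.1%. No test between this list and the core genes can be made with 1 library a genotype.

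**Figure D4:**
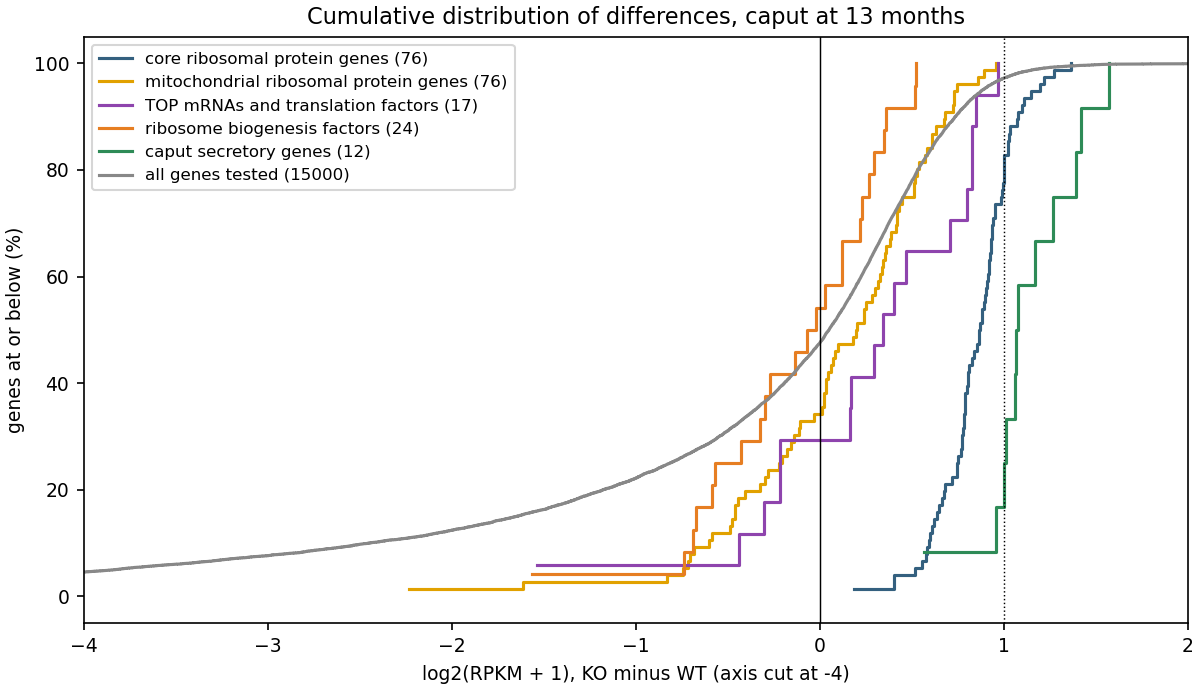
Cumulative share of genes (vertical axis, %) at or below each difference between the KO and the WT caput library (horizontal axis, log2(RPKM + 1), KO minus WT) for 6 gene groups; the axis ends at -4 and the dotted line marks 2-fold higher. The core ribosomal protein genes form a steep curve around 0.87, between all genes tested (0.05) and the caput secretory genes (1.07), and on a scale centred on the last of these they would lie below 0.

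Fragments of the members' mRNAs were read in the small RNA libraries, which the rule did not use. The authors' files list these sequences, on the plus strand, under the rRNA label, although the entries are ribosomal protein mRNAs. Sequences were counted under RefSeq entries of members and under 112 GenBank entries that share sequences with them, and a sequence that the files list under another entry, such as a piRNA, was not counted. A further 135 entries shared a sequence with a member but fell short of the linking rule, and their reads were left out. Depth ranged between 3855476 and 29049669 classified reads, and levels are given in RPM, reads scaled to 1000000 classified reads of the library.

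In caput at 13 months the fragments were 1864 reads in KO and 4395 in WT, or 102 RPM in KO (97.0 to 106) and 318 RPM in WT (309 to 327), a log2 ratio of -1.65 (-1.73 to -1.57). This is the opposite direction to the members' transcripts without the caput secretory centring, and it depends on the base. Per mRNA-class read the log2 ratio was 0.38. Over distinct sequences, as a share of all sequences listed for the library, it was 0.79, although the distinct member sequences themselves were 1571 in KO and 2880 in WT. All mRNA-class reads together were at 8440 RPM in KO caput and 34476 RPM in WT caput. Of 60 members with at least 20 fragment reads over the 2 caput libraries, 53 had a ratio under 1. For 42 of the 60 the interval lay under 1 and for 1, Rpl31, above it. Among 1426 other genes with at least 20 plus-strand reads under RefSeq entries of the mRNA class, 96% had a ratio under 1, 77.8% an interval under 1 and 0.982% an interval above 1. The members' lower counts were thus no more frequent than in mRNA-derived reads of these libraries as a whole. All 60 members had a transcript difference above 0 before any centring on the caput secretory genes, whichever side of 1 their fragment ratio lay on.

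In the other tissues the KO and WT libraries were closer, and the directions in corpus and cauda depend on the base. Corpus had 57.3 RPM in KO and 44.8 RPM in WT (log2 ratio 0.36, 0.20 to 0.51), and cauda had 96.9 RPM in KO and 80.1 RPM in WT (0.27, 0.16 to 0.39). Over distinct sequences the log2 ratio was -0.32 in corpus and -0.26 in cauda, and per mRNA-class read it was 0.12 in corpus and -0.38 in cauda. Testis held the most, with 765 RPM in KO and 739 RPM in WT (0.05, 0.00 to 0.10). Caput at 2 months held only 42 reads in KO and 16 in WT, and its log2 ratio of 0.40 (-0.46 to 1.33) was not resolved at that depth. WT caput at 13 months was thus the epididymal library with the highest level, between the other epididymal libraries and testis.

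**Figure D5:**
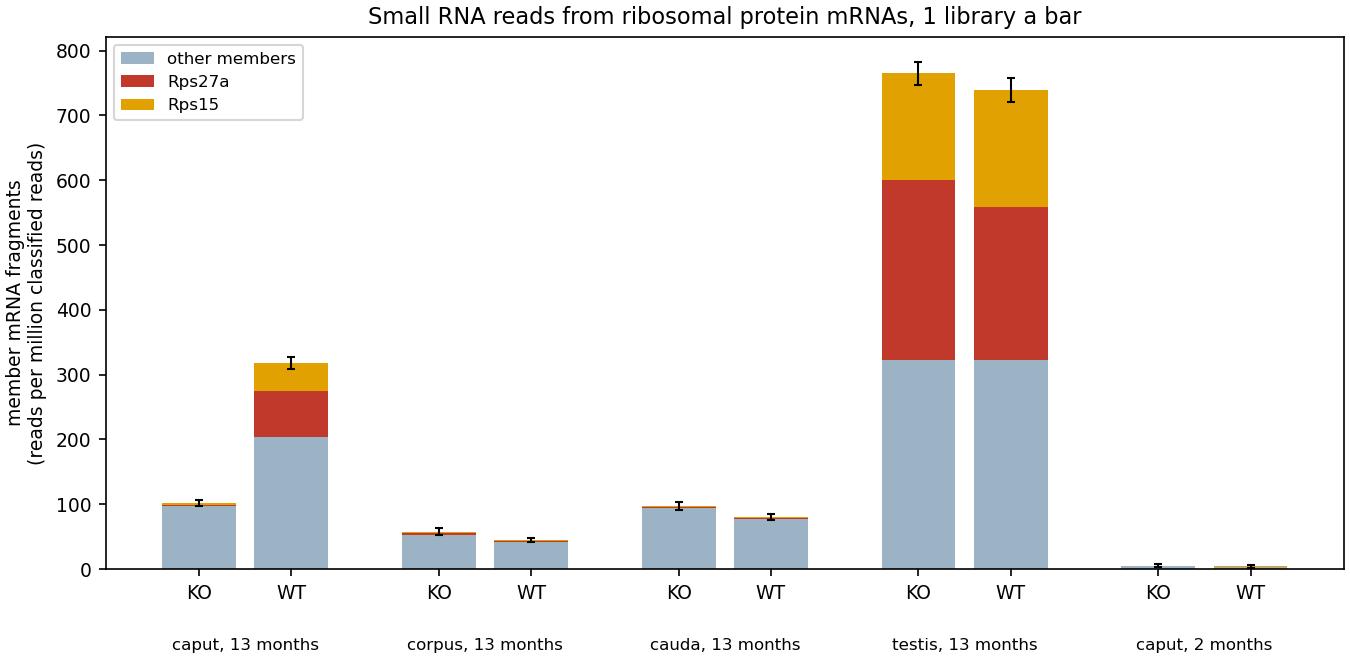
Small RNA reads from the members' mRNAs in each of the 10 libraries (vertical axis, RPM of classified reads), with Rps27a in red, Rps15 in yellow and all other members in blue; each bar is 1 library, KO left of WT, and error bars are exact Poisson intervals at 95% on the total. Testis bars reach 765 in KO and 739 in WT, and among the epididymal libraries WT caput at 13 months stands highest, at 318, with the red and yellow parts visible as in testis.

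Rps27a and Rps15 together gave 80 reads in KO caput and 1571 in WT caput, and most of the member fragments in testis. They had the lowest caput ratios of KO over WT among the 60 members with at least 20 reads. Both were singled out after these counts were seen, and their intervals do not allow for that choice. Rps27a, which encodes ubiquitin fused to a small subunit protein, had 44 reads in KO caput and 965 in WT caput, an RPM 29.1 times as high in WT (21.5 to 40.4). Rps15, a small subunit protein, had 36 reads in KO caput and 606 in WT caput, 22.4 times as high in WT (16.0 to 32.2). The pair made up 4.29% of member fragments in KO caput and 35.7% in WT caput, against 57.9% in KO testis and 56.4% in WT testis. These shares depend on the linking of GenBank entries, since only 56 members had a linked entry. RefSeq entries alone held 825 of 1864 member reads in KO caput and 1926 of 4395 in WT caput. The pair's share of those reads was not computed. In corpus and cauda the share lay between 3.04% and 8.14%.

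Their transcripts in the same tissue differed in the other direction unless centred on the caput secretory genes. Rps27a stood at 245 RPKM in KO and 124 RPKM in WT (0.98) and Rps15 at 557 RPKM in KO and 319 RPKM in WT (0.80). Without both genes, the other members still had 97.2 RPM in KO caput and 204 RPM in WT caput, a log2 ratio of -1.07. The other members stood at 322 RPM in both testis libraries.

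The 3 most abundant sequences of each gene over the caput and testis libraries at 13 months are printed, with the first base in capitals, because they show the T that begins most fragments in testis.
Rps27a-a: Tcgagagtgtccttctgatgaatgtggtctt
Rps27a-b: Taagttggctgtgctgaaatactataagg
Rps27a-c: Taagaagaataagcataagaggaagaaggt
Rps15-a: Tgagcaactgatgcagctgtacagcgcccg
Rps15-b: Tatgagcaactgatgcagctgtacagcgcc
Rps15-c: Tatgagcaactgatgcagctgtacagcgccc
Rps27a-a had 1 read in KO caput and 66 in WT caput, and 192 reads in KO testis and 157 in WT testis. Rps27a-b had 2 reads in KO caput and 31 in WT caput, and 107 in KO testis and 134 in WT testis. Rps27a-c was not listed in KO caput and had 39 reads in WT caput, and it had 127 reads in KO testis and 48 in WT testis, the most unequal testis counts of the 6 sequences. The 3 Rps15 sequences were not listed in KO caput and had 34, 37 and 19 reads in WT caput, while each had at least 80 reads in both testis libraries. The Rps15 sequences overlap, since the first base of Rps15-b and Rps15-c lies 2 bases before that of Rps15-a.

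These sequences are 29 to 31 nt long and begin with T, which stands for U. PIWI-interacting RNAs, small RNAs of germ cells, are known for such lengths and a first U. Over all members, sequences of 24 to 32 nt that begin with T were 6.65% of fragment reads in KO caput and 43.4% in WT caput, 61.5% in KO testis and 66.5% in WT testis, and between 5.95% and 12.9% in corpus and cauda at 13 months. The mRNA-class reads showed the same contrast, with 6.21% in KO caput, 47.9% in WT caput, 59.0% in KO testis and 63.8% in WT testis, so it was not particular to the members. Leaving such sequences out gave a log2 ratio of -0.93 in caput.

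The source of the Rps27a sequences is uncertain. Of its reads, 75.0% in KO caput, 23.8% in WT caput, 21.0% in KO testis and 25.0% in WT testis were listed without a mismatch, and the sequences Rps27a-a and Rps27a-c are listed with mismatches, so near-identical copies of the gene cannot be told apart from it. For Rps15 the shares without a mismatch were 91.7% in KO caput, 75.9% in WT caput, 75.3% in KO testis and 76.2% in WT testis. Rpl41, whose transcript was the most abundant of the members, had 79 fragment reads in KO caput and 91 in WT caput. Rpl10l and Rpl39l had few counted fragments, with none in KO caput and 5 and 1 reads in WT caput. A GenBank entry with 25 lines, 2 of them shared with Rpl10l, fell short of linking, so Rpl10l fragments may be undercounted.

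Rpl5 and Rpl31, like Rps27a, are named after their values were seen. Members lower in KO included Rpl5, which carries 5S ribosomal RNA, with 44 reads in KO and 150 in WT. The exception, Rpl31, had 26 reads in KO and 4 in WT, a ratio of 4.89 (1.70 to 19.3). These counts are those of 1 library a genotype, and no spread between animals stands behind them.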

How the data were processed

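Each group is 1 library of pooled tissue, so the genotypes were compared without a test. The RPKM values per RefSeq transcript, with a log2 fold change, a GFOLD value and an E-FDR, are values the authors deposited from GFOLD V1.1.3, per the file headers; the E-FDR, a p-value-like column of the authors, is 1 in all 28344 transcripts. The small RNA counts are reads per distinct sequence, deposited by the authors with up to 2 mismatches to an entry, per the file headers. Per the submitters' processing notes, TopHat2, Bowtie 0.12.7 and mm9 were used; at which step is not given in the sources used here. Full-length cDNA was sonicated and tagged with a Nextera kit on a HiSeq, per the labels' protocols.

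Differences are log2(RPKM + 1), KO minus WT, for genes that reached 1 RPKM in either library; this scale understates differences of low genes. Whole reads were recovered by a search for the transcript length that fits both RPKM values and the authors' fold change. The fit was within 0.1 reads, up to 10000 reads, and was found for 71 of 88 members. On simulated data 99.3% of 1707 solutions were right. The simulation scored no transcript with as few reads as Rps21 or Rps29. It held none as short as Rpl38 or as long as Rps15a, so that share does not cover these genes. Ratios of reads have exact conditional binomial intervals at 95%, levels exact Poisson intervals, and counts of 0 were read against a floor of 3 reads. Reads carry no molecular identifiers, so these cover counting error only.

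Of the 28344 transcripts 26880 matched RefSeq by accession, all 88 members among them, and 41 names turned into dates were restored. A GenBank entry was linked to a member by at least 3 shared sequences, 5% of its lines, and 90% of these on 1 member. In the files of caput at 2 months 5419 KO and 5531 WT counts stored as dates were read back from the month. Genes named are all paralogues with their usual copies, the 10 with the highest mean and the 10 largest and smallest differences, the stalk, the X-linked genes and those past 2-fold, with up to 4 per comparison list. Rps27a, Rpl5, Rpl31, Rpl34, Rpl34-ps1, Rps19-ps3, Rplp2-ps1, Ubtf and Ncl were named outside this rule. So were Rpl38 and Rps15a, for their lengths, and the target Gpx5. Values of some single genes are not reported here. Members and lists were chosen with earlier results of these data known. Analysis used Python 3.11.15, pandas 2.3.3 and scipy 1.17.1. The alternatives covered pseudocounts, filters, summed transcripts, 2 centrings, the authors' fold change, 4 member lists and 7 ways of counting fragments.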

Additional observations from a re-analysis of the deposited data

Results flagged for a closer look

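The small RNA reads of ribosomal protein mRNAs were lower in KO caput at 13 months, with a log2 ratio of KO over WT of -1.65, while the ratio was 0.36 in corpus, 0.27 in cauda and 0.05 in testis at 13 months and 0.40 (-0.46 to 1.33, exact interval for counting error) in caput at 2 months, where it was -0.06 over both strands. The directions depend on the base, since per mRNA-class read caput at 13 months had 0.38, corpus 0.12 and cauda -0.38. Over distinct sequences, as a share of all sequences listed for the library, caput had 0.79, corpus -0.32 and cauda -0.26. With 1 library in each group, the difference in direction between these tissues and ages was not tested. Beside it stand the mRNA-class reads of the same libraries, at 8440 RPM (reads scaled to 1000000 classified reads) in KO caput and 34476 RPM in WT caput, and the share of member fragments of 24 to 32 nt that begin with T, at 6.65% in KO caput and 43.4% in WT caput. Their part in the ratio was not tested.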

How the results depend on the processing

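No paired analysis was possible because each group is 1 library, and for the same reason no replicate could be left out. The median difference of the members, 0.83, lay between 0.78 and 0.91 under the pseudocounts, filters, summed transcripts, centring on all genes, the authors' fold change and the other member lists. Centring on the caput secretory list gave -0.24, and also turned Rpl10a (-0.047), Rpl12 (-0.040), Rpl13a (-0.068), Rpl17 (-0.039), Rpl19 (-0.070), Rpl3 (-0.068) and Rps3 (-0.047), each past 2-fold before it. The 16 members at least 2-fold higher became 10 with a pseudocount of 5, 9 when centred on all genes, 0 when centred on the caput secretory list and 29 with the fold change of the authors' deposited table, which uses the library constants of the file header. The 2 lower members became 0 without the paralogues or with core genes alone, and 3 when centred on the caput secretory list. Of all genes, 415 were higher and 3321 lower; with a pseudocount of 0.1, 698 were higher, with one of 5, 190 higher and 2073 lower, centred on the caput secretory list 8 higher and 7667 lower, and with the authors' deposited fold changes 1004 higher. Rpl10l stayed lower, between -6.82 and -3.84, and Rpl39l at -4.05 with a pseudocount of 5.

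Fragments in caput at 13 months had a log2 ratio of -1.65, of 0.38 per mRNA-class read, 0.79 over distinct sequences, -0.93 without 24 to 32 nt sequences that begin with T, -1.07 without Rps27a and Rps15, and -1.27 without mismatches. The first 2 count against bases that themselves differ between the libraries. Per mRNA-class read corpus had 0.12 and cauda -0.38, and over distinct sequences corpus had -0.32 and cauda -0.26. Under RefSeq entries alone corpus had 0.19 and testis -0.17. Testis had 0.25 without 24 to 32 nt sequences that begin with T, -0.00054 without Rps27a and Rps15 and -0.042 without mismatches. The alternatives without Rps27a and Rps15, without mismatches, under RefSeq entries alone, on both strands and with core genes alone were added after the data had been seen. Depth limits Rps21, Rps29 and caput at 2 months.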
